A study of Mus musculus with 201 samples.

Results

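Kinesins and dyneins are the motors that carry cargo along microtubules, and their genes were followed here across mouse strains in hippocampal RNA. The members were the probe sets whose annotation gave a single gene symbol beginning with Kif and a number, Klc, Dync or Dynl. This rule used names alone and found 127 of 45037 tested probe sets, for 53 of 18193 genes. Of these genes 32 had more than 1 probe set, and 4 further probe sets that carried such a symbol beside another symbol were not members.

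The study measured pooled hippocampal RNA of 100 strains on 201 Affymetrix M430 2.0 arrays. There were 68 BXD recombinant inbred strains on 134 arrays, bred from C57BL/6J and DBA/2J, and 13 CXB recombinant inbred strains on 27 arrays, bred from BALB/cByJ and C57BL/6ByJ. Beside them were 13 classical inbred strains on 27 arrays, namely 129S1/SvImJ, A/J, AKR/J, BALB/cByJ, BALB/cJ, C3H/HeJ, C57BL/6ByJ, C57BL/6J, DBA/2J, KK/HIJ, LG/J, NOD/LtJ and NZO/HlLtJ. The wild-derived strains CAST/EiJ, PWD/PhJ, PWK/PhJ and WSB/EiJ had 7 arrays in all, and the F1 hybrids B6D2F1 and D2B6F1 had 6. No group carried an engineered allele or received a treatment according to the labels. The animals were young to mature adults of 41 to 196 days (median 62). A sample pooled 1 to 4 mice (median 3), with 101 female, 99 male and 1 mixed pool, and arrays were run in 7 batches.

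A kinesin is built from heavy chains with a motor head, most of which walk towards the plus end of a microtubule, and the conventional kinesin-1 motor also has light chains that bind cargo. Cytoplasmic dynein 1 walks the opposite way, towards the cell body of a neuron, and is assembled on a very large heavy chain from intermediate, light intermediate and light chains. In the hippocampus these motors supply axons and dendrites with synaptic vesicle precursors, mitochondria and receptors. Dynein 2 and several kinesins serve cilia, and another set of kinesins acts on the spindle of dividing cells.

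Values are PDNN units, the deposited log-like score per probe set and array, whose base is not stated, so differences are given and no folds. A strain value is the level of a strain after a model had taken out sex and batch, and a call is an adjusted p of at most 0.05 from limma, with Benjamini-Hochberg adjustment over all 45037 probe sets. The intraclass correlation is the share of the remaining variance that lay between strains. Levels of different probe sets are set side by side only to pick the brightest probe set of a gene, to look for marker RNA and to point out low readings. The arrays held marker RNA of hippocampal neurons: Neurod6 of pyramidal neurons ran from 9.77 to 10.8 units over the arrays and C1ql2 of dentate granule neurons from 8.34 to 9.76, beside array medians of 7.80 to 7.93. They also held RNA of the choroid plexus, whose marker Ttr ran from 8.29 to 12.2. For 6 arrays the file header named another strain, sex or batch than the label did. On 8 more, all arrays of BXD48a, BXD65a, BXD65b and BXD73a, it named another BXD number. Where leaving out either set ended a call, the value without it is given beside the result.

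Differences between strains were called for a minority of the motor probe sets. Over all strains 23 of 127 members were called (18.1%), beside 21.6% of all probe sets. Among the BXD strains 10 were called (7.87%, beside 6.95%) and among the CXB strains 7 (5.51%, beside 4.2%). The median intraclass correlation over all strains was 0.103 for the members and 0.0983 for all probe sets. These shares lay near those of the array as a whole, and 94 members, including every probe set of 29 genes, were called in no comparison.

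**Figure D1:**
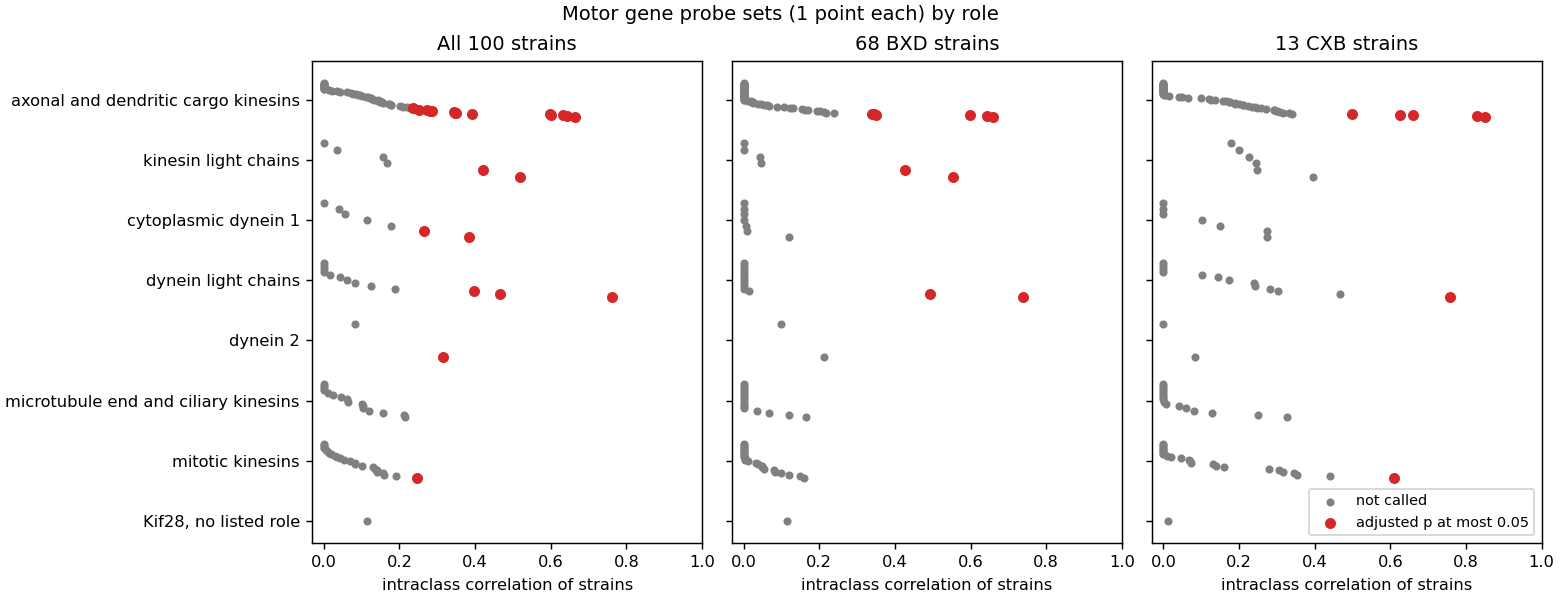
Intraclass correlation of strains (horizontal axis, no unit) for each of the 127 probe sets, by role, over all strains, BXD strains and CXB strains. Red points had an adjusted p of at most 0.05; Dynll1 reached 0.763, 0.739 and 0.757 in the 3 panels, and the microtubule-end and ciliary kinesins had no red point.

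By role, calls over all strains are set beside the 21.6% of all probe sets, and no role was tested against it. The kinesins that carry axonal and dendritic cargo, the role with the most members, had 14 of 58 probe sets called, in 10 of 17 genes. The kinesin light chains had 2 of 6, both of Klc1. Dynein 1 had 2 of 7, the dynein light chains 3 of 13 and dynein 2 1 of 2. The mitotic kinesins had 1 of 24 and the microtubule-end and ciliary kinesins 0 of 16. A single probe set of Kif28, which has no listed role here, was not called.

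Sequence around the gene start is shown for Klc1 and Kif17, each called with 2 probe sets in the BXD strains, for Dynll1, which had the highest intraclass correlation over all strains, and for Kif5c, whose difference between the BXD parents was the largest called of any member. The windows come from a RefSeq promoter table. They ran from 250 bases before to 50 bases after the start of the gene and were available for 44 of the 53 genes, as 50 windows, on build GRCm38.p6. They are Klc1 at chr12:111758618-111758917 and Kif17 at chr4:138262001-138262300 on the plus strand, Kif5c at chr2:49619036-49619335 on the plus strand and Dynll1 at chr5:115300941-115301240 on the minus strand. Capitals mark the cAMP response element TGACGTCA and the GC box GGGCGG on either strand.
Klc1: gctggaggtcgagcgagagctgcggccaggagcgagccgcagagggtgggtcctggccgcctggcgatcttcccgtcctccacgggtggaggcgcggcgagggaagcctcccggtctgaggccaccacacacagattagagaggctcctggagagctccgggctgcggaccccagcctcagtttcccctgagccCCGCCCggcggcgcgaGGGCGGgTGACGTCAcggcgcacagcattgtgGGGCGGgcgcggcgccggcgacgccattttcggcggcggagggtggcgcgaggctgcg
Kif17: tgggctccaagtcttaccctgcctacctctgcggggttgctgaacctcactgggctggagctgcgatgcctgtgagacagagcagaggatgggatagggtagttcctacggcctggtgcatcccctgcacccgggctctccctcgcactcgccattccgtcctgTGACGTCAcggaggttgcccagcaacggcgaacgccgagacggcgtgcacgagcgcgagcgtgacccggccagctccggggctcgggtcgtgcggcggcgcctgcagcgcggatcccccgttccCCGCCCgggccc
Kif5c: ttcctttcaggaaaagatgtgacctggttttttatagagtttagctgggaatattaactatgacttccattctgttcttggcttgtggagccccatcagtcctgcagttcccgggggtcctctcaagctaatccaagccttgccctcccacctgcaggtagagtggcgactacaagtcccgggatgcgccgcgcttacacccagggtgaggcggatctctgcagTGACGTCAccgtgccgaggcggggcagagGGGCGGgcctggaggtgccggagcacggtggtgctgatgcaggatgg
Dynll1: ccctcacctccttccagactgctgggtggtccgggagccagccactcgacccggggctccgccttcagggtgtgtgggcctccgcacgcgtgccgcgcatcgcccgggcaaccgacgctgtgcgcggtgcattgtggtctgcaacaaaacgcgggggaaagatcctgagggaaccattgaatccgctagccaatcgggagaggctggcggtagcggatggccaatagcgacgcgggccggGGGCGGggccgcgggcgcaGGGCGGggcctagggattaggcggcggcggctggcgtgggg
Counting the base after the first 250 as 0, the palindrome TGACGTCA began at position -33 in Klc1, -86 in Kif17 and -26 in Kif5c, and Dynll1 held none. Of the 50 windows of member genes 8% held it, in 4 genes (Kif17, Kif18a, Kif5c and Klc1), beside 1.79% of all 32851 windows. The GC box GGGCGG was in 72% of the member windows and 35.7% of all windows. CCAAT was in 40% and 37.4%, TATAAA in 10% and 13.6%, the E-box CACGTG in 4% and 7.15%, and the NRF1 palindrome in 2% and 0.971%. Both strands were searched for these 6 motifs, no marked matches overlapped, and a match is a description of letters only.

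Among the cargo kinesins, Kif1c, a motor of the kinesin-3 family, had the highest intraclass correlation in the BXD panel. Its probe set 1424746_at ran from 8.38 in BXD86, on a single array, through a median of 8.62 to 9.07 in BXD75. The intraclass correlation was 0.661 (limma adjusted p = 5.22e-11). C57BL/6J stood at 8.61 and DBA/2J at 8.48, and 34 BXD strains lay above both parents and 13 below both. The range of the strains was therefore wider than the gap between the parents, which was not called (-0.13 ± 0.11 SE). LG/J had the highest value of all strains, 9.22. The call was kept under every alternative tried, whereas the other 3 Kif1c probe sets were not called in the BXD strains.

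Kif5a, a kinesin-1 heavy chain of neurons, separated the parents and spread between them in the BXD strains. With probe set 1434670_at the C57BL/6J arrays read 11.1, 11.3 and 11.3 and the DBA/2J arrays 10.7 and 10.7, so the strains did not overlap. DBA/2J was the lowest of all 100 strains, and the BXD strains ran from 10.7 in BXD34 to 11.4 in BXD45. Of the 68 BXD strains 66 had values between those of the parents and 2 lay above both. The intraclass correlation in the BXD panel was 0.642 (limma adjusted p = 3.51e-10). The other 2 probe sets, 1427635_at and 1450249_s_at, had BXD intraclass correlations of 0 and differed between the parents by -0.02 ± 0.14 and 0.08 ± 0.38 units. With MAS5 values the BXD correlation of 1434670_at was 0.0660 (limma adjusted p = 0.968, the highest of the alternatives, whose lowest was 3.12e-14), and with RMA values the call was also lost.

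Klc1, the main kinesin light chain of neurons, varied in the same 2 probe sets over all strains, in the BXD panel and between the parents. With 1417005_at the BXD strains ran from 10.4 in BXD9 through 10.7 to 10.9 in BXD86, with an intraclass correlation of 0.554 (limma adjusted p = 4.51e-07). BXD86 had a single array, and BXD9 a single one in the fit, its other being the mixed-sex array. With 1428881_at it was 0.428 (0.000489). Over the 100 strains the values of these 2 probe sets followed each other, with Pearson's r of 0.752 and Spearman's rho of 0.750 (permutation p = 1e-05 for each, the smallest that 100000 resamples can give; Benjamini-Hochberg 2e-05 and 1.5e-05 over 6 pairs), and r of 0.727 without the 2 farthest strains. They share arrays, and the strains of a panel share parents. The third probe set, 1448541_at, had an intraclass correlation of 0.0344. With RMA values 1417005_at lost its call in the BXD strains and over all strains, and with MAS5 values 1428881_at lost its call in the BXD strains. Klc3 and Klc4, the other light chains measured, had no call in any comparison.

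Kif17, a kinesin-2 motor of dendrites, was the only member gene with 2 called probe sets in both recombinant panels. With 1419827_s_at the intraclass correlation was 0.597 in the BXD strains and 0.661 in the CXB strains (limma adjusted p = 8.79e-08 and 0.000217). With 1422762_at it was 0.351 and 0.498 (0.00850 and 0.0264). The BXD strains ran from 7.80 in BXD13 to 8.09 in BXD86 with the first and from 7.93 in BXD16 to 8.32 in BXD66 with the second. BXD86 had a single array. Strain values of the 2 probe sets had r of 0.737 and rho of 0.732 over 100 strains (permutation p = 1e-05 for each, Benjamini-Hochberg 2e-05 and 1.5e-05), and r of 0.719 without the 2 farthest. The BXD call of the first was kept under every alternative tried, and that of the second was lost with RMA values, with or without the mismatched columns, and with MAS5 values (0.03). The CXB call of the first was lost under 3 alternatives and that of the second under 8, among them a fit of the CXB arrays alone, and for the second leaving out 1 array of CXB3 or CXB13 or either array of CXB8.

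Several other cargo kinesins had lower intraclass correlations. Kif3b, a motor subunit of heterotrimeric kinesin-2, was called in the BXD strains with 1450073_at (intraclass correlation 0.345, from 7.82 in BXD2 to 8.38 in BXD45). A second Kif3b probe set, 1420986_s_at, was called over all strains only (0.274), and the pair had r of 0.253 and rho of 0.229 over 100 strains (permutation p = 0.011 and 0.022, Benjamini-Hochberg 0.013 and 0.027). The BXD call of 1450073_at was lost with RMA values without the mismatched columns. Kif26a, an atypical kinesin, had 0.339 in the BXD strains and lost this call under 6 alternatives, among them leaving out the 6 arrays with disagreeing headers (0.31). Kif3c (1448946_at, 0.285), Kif16b (0.252) and Kif13a (1447853_x_at, 0.236) were called over all strains and in neither recombinant panel, and each lost its call under several alternatives. Kif3c lost it under 7 (0.08 with MAS5 values) and Kif13a under 4 (0.07 with MAS5 values). Kif16b lost it under 8, among them leaving out 1 NOD/LtJ array, the 6 arrays with disagreeing headers (0.24) or the 8 with another BXD number (0.24). Median BXD levels were 7.51 for this Kif13a probe set and 7.75 for Kif16b, below the array medians of 7.80 to 7.93.

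**Figure D2:**
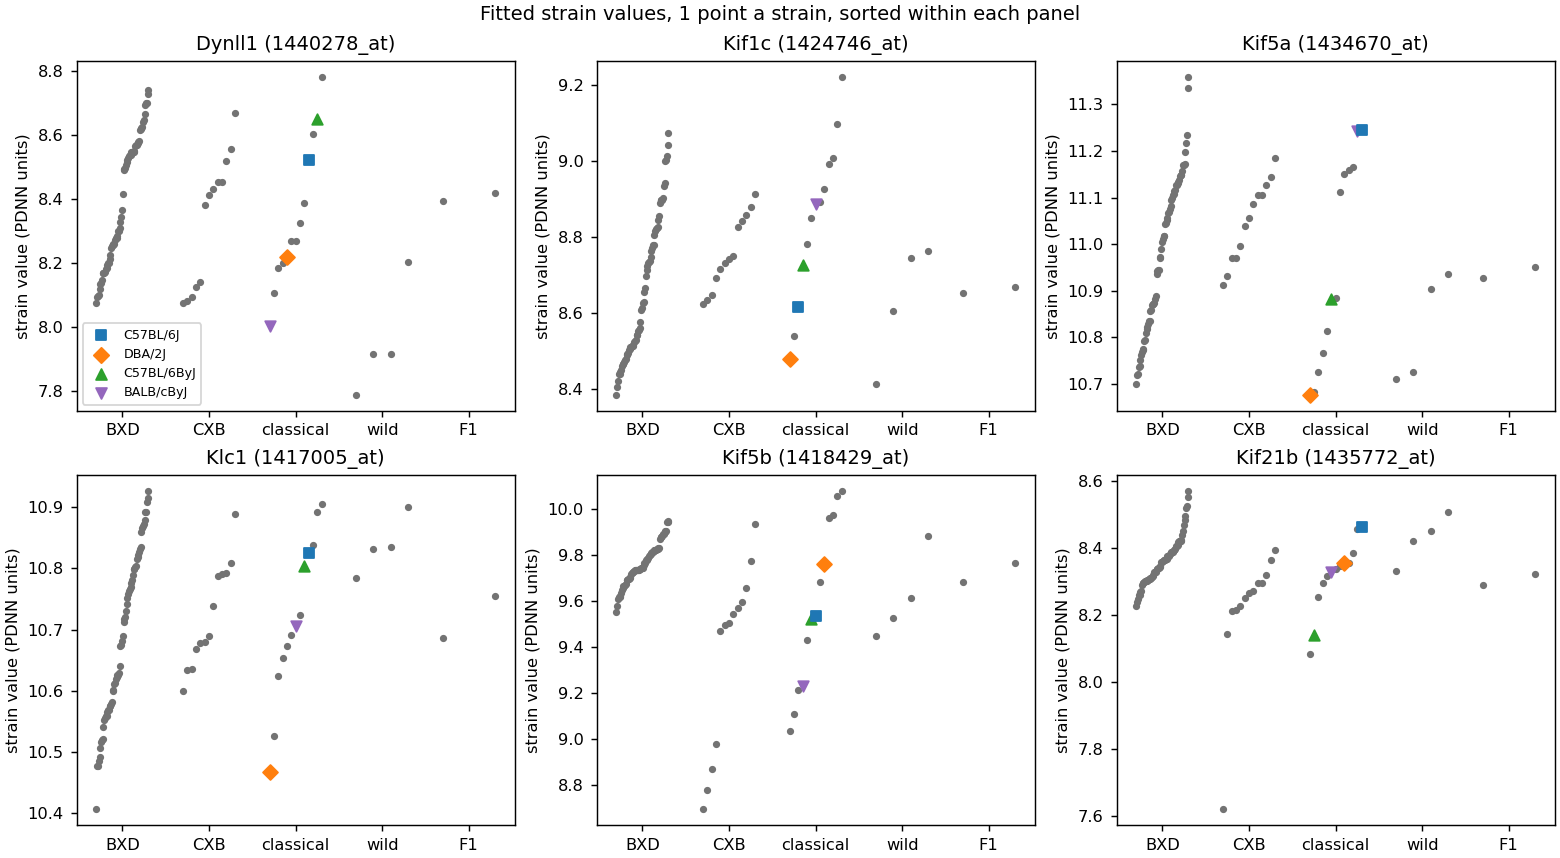
Strain values in PDNN units (vertical axes) of 6 called probe sets, 1 point a strain, sorted within BXD, CXB, classical, wild-derived and F1 strains, with the parents marked. The Dynll1 strains of the CXB panel leave a gap from 8.14 to 8.38, 4 CXB strains lie below 9.0 with Kif5b, and CXB7 stands at 7.62 with Kif21b.

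Kif5b, the kinesin-1 heavy chain of most cell types, split the CXB panel and not the BXD panel. With 1418429_at CXB4, CXB6, CXB5 and CXB13 had strain values of 8.70 to 8.98, and the other 9 CXB strains 9.47 to 9.93. Single arrays read 8.27 to 9.21 in the first 4 strains (9 arrays) and 9.28 to 10.0 in the others (18 arrays), so the sets did not overlap; they were told apart by these values, and no test was made between them. Of the CXB parents, C57BL/6ByJ stood at 9.52, within the range of the 9 strains, and BALB/cByJ, on 1 array, at 9.23, between the sets. The intraclass correlation was 0.83 in the CXB strains (limma adjusted p = 1.24e-11) and 0 in the BXD strains, where values ran from 9.55 to 9.95. The ends of that BXD range, BXD55 and BXD94, had a single array each. The difference between the panels itself was not tested. A second probe set, 1418427_at, was called in the CXB strains (0.625, limma adjusted p = 0.000423), and the other 4 Kif5b probe sets were not. Both calls were lost when the CXB arrays were fitted alone. Over all strains 1418428_at was also called (0.28), a call lost under 3 alternatives. Over 100 strains 1418427_at and 1418429_at had r of 0.695 and rho of 0.546 (permutation p = 1e-05 for each). For 1418428_at and 1418429_at r was 0.390 and rho 0.582 (permutation p = 0.00013 and 1e-05). For 1418427_at and 1418428_at r was only 0.0997 and rho 0.110 (permutation p = 0.32 and 0.28).

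Kif21b, a kinesin that also regulates microtubule growth, had 1 CXB strain apart from all others. With 1435772_at the 2 CXB7 arrays read 7.62 and 7.61, while the 25 arrays of the other CXB strains read 8.11 to 8.42. All 199 other arrays of the study read 7.94 to 8.62, so no other array was as low as those of CXB7. The CXB7 readings lay below the array medians of 7.80 to 7.93. The intraclass correlation in the CXB strains was 0.851 (limma adjusted p = 6.49e-13) and was 0.278 without both CXB7 arrays (limma adjusted p = 0.334; 1.26e-14 was the lowest of the alternatives), so the CXB call rested on that strain. The other Kif21b probe set, 1421119_at, read 7.48 and 7.43 in CXB7 and had an intraclass correlation of 0.

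Dynll1, the light chain LC8 that dimerizes many dynein and non-dynein partners, had the highest intraclass correlation of any member over all strains, in a single probe set. With 1440278_at it was 0.763 over all strains (limma adjusted p = 1.08e-18), 0.739 in the BXD strains (4.40e-15) and 0.757 in the CXB strains (1.13e-07). The BXD strains ran from 8.08 in BXD60 to 8.74 in BXD23, with 28 strains above both parents and 18 below both. In the CXB panel 5 strains lay at 8.07 to 8.14 and 8 at 8.38 to 8.67. The widest gap, 0.239 units, divided them. CAST/EiJ had the lowest value, 7.79 on 1 array, and C3H/HeJ the highest, 8.78. All 3 calls were kept under every alternative tried. The other 3 Dynll1 probe sets had intraclass correlations of 0 to 0.0829 over all strains and were not called.

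Dynlrb2, a roadblock light chain known from ciliated cells, varied in the BXD panel together with markers of ciliated cells. Its strain values ran from 7.98 in BXD45 through 8.29 to 8.59 in BXD75 (1428987_at), with an intraclass correlation of 0.492 in the BXD strains, a call that was lost with MAS5 values. The relations below use strain means of deposited values, with sex and batch not taken out. In the 68 BXD strains the mean level of 6 ependyma and cilia markers ran from 7.67 to 8.03. It followed Dynlrb2 with r of 0.933 and rho of 0.933 (permutation p = 1e-05 for each, the smallest possible; Benjamini-Hochberg 3e-05 over 6 relations) and r of 0.926 without the 2 farthest strains. Within the 7 batches, over 12 to 30 BXD arrays each, r was 0.834 to 0.962. For 8 choroid plexus markers r was 0.855 and rho 0.852 (permutation p = 1e-05 for each, Benjamini-Hochberg 3e-05), r without the 2 farthest was 0.851, and within batches r was 0.676 to 0.83. In the 13 CXB strains r was 0.779 for the ependyma and cilia markers and 0.821 for the choroid plexus markers (permutation p = 0.0018 and 0.00062, Benjamini-Hochberg 0.0022 and 0.0012), with rho of 0.555 and 0.791 (p = 0.052 and 0.0019, Benjamini-Hochberg 0.053 and 0.0039) and r of 0.636 and 0.700 without the 2 farthest. In the 13 classical strains r was 0.799 and 0.608 (permutation p = 0.001 and 0.027, Benjamini-Hochberg 0.0015 and 0.027), with rho of 0.709 and 0.555 (p = 0.0091 and 0.053, Benjamini-Hochberg 0.014 and 0.053) and r of 0.6 and 0.54 without the 2 farthest. No r within batches was computed for the CXB and classical strains, so batch may enter their relations. Of the ependyma and cilia markers 5 of 6 were called in the BXD strains, as were 7 of 8 choroid plexus markers. Of all genes, each read by its brightest probe set, 7.59% were called there. In the CXB strains 0 of either list were called, beside 4.58% of all genes, and the difference between the panels was not tested. In bulk RNA a different share of ciliated cells in the dissection and a different RNA level per cell cannot be told apart.

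The other dynein subunits were not called within the recombinant panels. Of cytoplasmic dynein 1, the light intermediate chain Dync1li1 (1424947_at, intraclass correlation 0.385) and the heavy chain Dync1h1 (1439950_at, 0.266) were called over all strains and in neither panel. A second Dync1h1 probe set, 1416648_at, and the intermediate chains Dync1i1 and Dync1i2 were not called. Dync2h1, the heavy chain of the dynein 2 motor of cilia, had 0.315 over all strains, and lost this call under 4 alternatives (0.02 with MAS5 values). Dynlt1f, a Tctex-type light chain with near-identical copies, had 0.397 with 1428117_x_at, a probe set that may match several of those copies. This call was lost with MAS5 values (0.00) and without the arrays of a high RMA outlier share (0.23), and in the CXB strains the correlation was 0.467 and not called.

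Few kinesins of the spindle and none of microtubule ends were called between strains. Kif22 was the only mitotic kinesin called over all strains (1437716_x_at, 0.248), and Kif18a the only one called in the CXB strains (1457895_at, 0.609). The Kif22 call was lost under 7 alternatives, among them RMA values (0.01), MAS5 values (0.20) and no batch term (0.12). Leaving out 1 BXD16 array or the 6 arrays with disagreeing headers (0.23) also ended it. The Kif18a call rested on CXB8, whose arrays read 7.47 and 7.48, and was lost without either array. It was lost under 9 alternatives in all, among them RMA, MAS5 and quantile-normalized values and the CXB arrays alone. The other CXB strains read 7.22 to 7.39 on their arrays, and all these readings lay below the array medians of 7.80 to 7.93. Dividing-cell markers were likewise not called, 0 of 6 over all strains, in the BXD strains and in the CXB strains. Their mean level was also low, 7.57 to 7.87 over the arrays with a median of 7.69, so their lack of calls says little. The depolymerizing kinesin Kif2a and the other microtubule-end and ciliary kinesins had intraclass correlations of 0 to 0.215 over all strains.

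The BXD parents were compared directly, DBA/2J on 2 arrays, both female, and C57BL/6J on 3, of which 1 was female. Of the 127 members 14 were called (11%, beside 7.24% of all probe sets), 7 higher in DBA/2J (4.61% of all) and 7 lower (2.63% of all). The median difference was -0.01 units for the members and -0.02 for all probe sets. In 13 of the 14 the arrays of the 2 strains did not overlap. In batch 5, the batch that held arrays of both strains (1 each, of different sex), all 14 differences had the same sign as in the fit. Both counts use the arrays that gave the calls, so neither is separate support. They were not computed for all called probe sets.

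Kif5c, a neuronal kinesin-1 heavy chain, differed most. With 1422945_a_at the C57BL/6J arrays read 8.79, 8.45 and 8.40 and the DBA/2J arrays 9.22 and 9.58. The fitted difference was 1.12 ± 0.26 units (SE, limma), and the call was lost without the batch term. Kif3a, a motor subunit of heterotrimeric kinesin-2, read 8.71, 8.53 and 8.59 in C57BL/6J and 9.39 and 9.47 in DBA/2J with 1420375_at. Its difference was 0.88 ± 0.18 units (limma adjusted p = 0.000269), and it was the only parental call kept under every alternative tried. Among these, RMA values do not test the parents, because the RMA columns named for C57BL/6J matched BALB/cJ arrays best. Kif1b, a kinesin-3 motor of vesicles and mitochondria, was higher in DBA/2J by 0.73 ± 0.15 units with 1425270_at, a call lost without DBA/2J replicate 1. With this probe set C57BL/6J stood at 7.61, below the array medians of 7.80 to 7.93, and DBA/2J at 8.34.

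The other rises in DBA/2J were smaller. They were Dync1h1 (1439950_at, 0.52), a second Kif5c probe set (1457255_x_at, 0.47), the vesicle motor Kif13a (1447853_x_at, 0.33) and Kif21a (1455029_at, 0.26). Falls were led by Kif5a (-0.57 ± 0.10, limma adjusted p = 9.07e-06) and Klc1 (-0.36 ± 0.09 with 1417005_at and -0.29 ± 0.08 with 1428881_at). With MAS5 values the second Kif5c probe set turned its sign, and Kif5a lost its call. The same was seen with RMA values, which do not test the parents because of the mismatched C57BL/6J columns. Dynll1 differed by -0.30 ± 0.10 (also -0.30, and no longer called, without the 8 arrays with another BXD number), with overlapping arrays, 8.57, 8.65 and 8.34 in C57BL/6J and 8.42 and 8.07 in DBA/2J. Kif13a (1451890_at, -0.19), Kif17 (1419827_s_at, -0.17) and Kif1c (1436224_at, -0.16) completed the falls. Kif13a thus was called in opposite directions by 2 of its probe sets. Its levels lay near or below the array medians of 7.80 to 7.93. They were 7.33 in C57BL/6J and 7.66 in DBA/2J with 1447853_x_at, and 7.91 and 7.72 with 1451890_at. Kif1c 1436224_at was likewise low, at 7.78 and 7.62, as was Dync1h1 1439950_at in C57BL/6J, at 7.71. Apart from Kif3a, Kif5a and the first Kif5c probe set, each of these 14 calls was lost when at least 1 single array was left out.

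**Figure D3:**
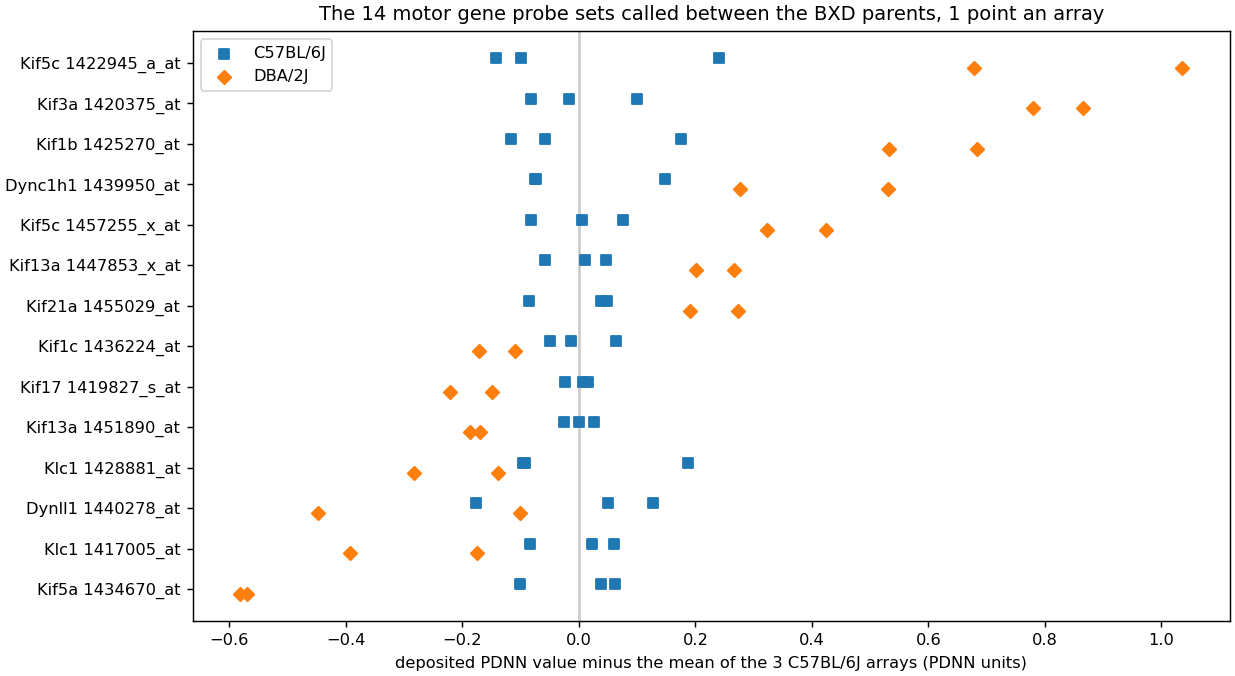
Deposited values of the 3 C57BL/6J and 2 DBA/2J arrays for the 14 members called between the parents, as PDNN units from the mean of the C57BL/6J arrays (horizontal axis), 1 point an array. Kif5c and Kif3a lie farthest to the right, Kif5a farthest to the left, and the strains overlap for Dynll1.

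A probe set reports the stretch of transcript its probes match, and where a gene with several probe sets had a call, it was not shared by all of them. Of the 11 genes with several probe sets and a parental call, 0 had every probe set called. The brightest Kif5c probe set differed by 0.00 ± 0.10 units, and the other 3 Kif3a probe sets by -0.07 to -0.00. Over all strains, 13 of the 32 genes with several probe sets had a call, 9 of them in 1 probe set and 4 in several, and 0 in every one. These counts were not computed for the other genes of the array, so they are not shown to be particular to motor genes.

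**Figure D4:**
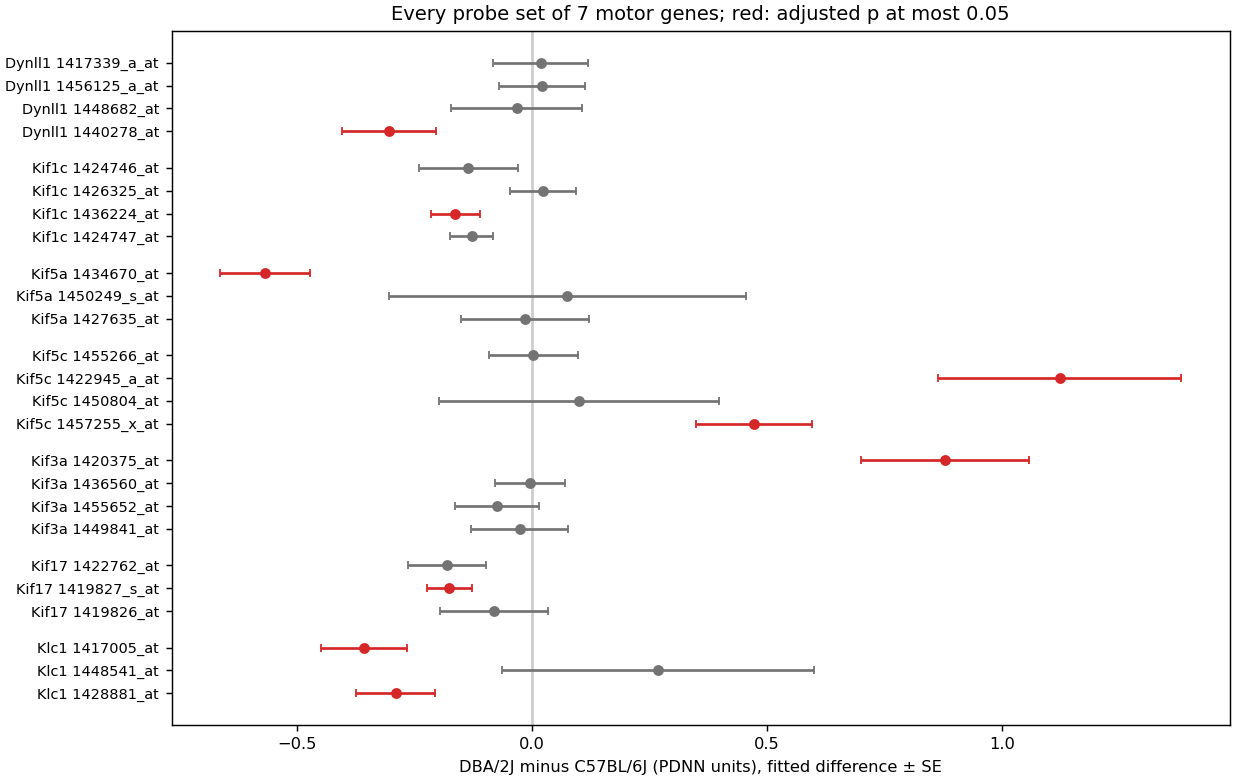
Fitted DBA/2J minus C57BL/6J difference with its SE (horizontal axis, PDNN units) for every probe set of 7 motor genes; red points had an adjusted p of at most 0.05. The Kif5a call at -0.57, the Kif3a call at 0.88 and the Dynll1 call at -0.30 each stand beside uncalled probe sets of the same gene.

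The falls and the rises differed in how often they were also called among the BXD strains, which were measured on other arrays but in the same fit. Of the 7 members lower in DBA/2J 5 were called in the BXD panel (Dynll1, Kif5a, Kif17 and both of Klc1), and of the 7 higher 0 were. Over all probe sets 61.5% of the 1183 lower ones and 16.2% of the 2077 higher ones were called in the BXD panel, so the members followed the array as a whole. With Kif5c 1422945_a_at and Kif3a 1420375_at every one of the 68 BXD strains lay between the parents, and with Kif5c 1457255_x_at 66 did, with 1 above both and 1 below both. The first Kif5c probe set had BXD values of 8.61 to 9.53 and Kif3a of 8.80 to 9.34. BXD55 and BXD9, at the ends of the Kif5c range, each had a single array in the fit. Markers of oligodendrocytes and myelin moved with this comparison: 8 of 9 were lower in DBA/2J, with a median of -0.62 units, and their mean level was 9.67 to 10.2 on the C57BL/6J arrays and 9.29 to 9.41 on the DBA/2J arrays. Of all genes, each read by its brightest probe set, 3.09% were called lower in DBA/2J and 2.62% higher. Other lists had fewer calls. Lower in DBA/2J were C1ql2 (-0.68) and Tdo2 (-0.38) of dentate granule neurons and Bok (-0.29) of pyramidal neurons. So were Gfap (-0.99) of astrocytes and Esam (-0.18) and Slco1a4 (-0.22) of endothelium. Higher were Slc1a3 (0.33) of astrocytes, Cx3cr1 (0.35) of microglia and Dcx (0.58) of immature neurons. The ratio of 3' to 5' actin signal, a sign of RNA quality, was 1.14 to 1.68 in C57BL/6J and 1.28 to 1.30 in DBA/2J. With that ratio as a covariate Dynll1 (-0.24) and Kif1c (-0.15) lost their calls and the other 12 members kept theirs. The part of the myelin and other markers in the result was not tested.

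Between the sister strains C57BL/6J and C57BL/6ByJ, 1 member was called (0.787%, beside 0.0799% of all probe sets), higher in C57BL/6J (0.0355% of all, with 0.0444% lower). Kif21b read 8.47, 8.45 and 8.44 in C57BL/6J and 8.19 and 8.13 in C57BL/6ByJ with 1435772_at. The difference was 0.32 ± 0.07 units (limma adjusted p = 0.0280), and within batch 5, with 1 array each, it was 0.245. The call was lost whenever any 1 of the 5 arrays was left out.

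The 4 wild-derived strains were compared with the 13 classical inbred strains, with strains as replicates. There were 3 calls among the members (2.36%, beside 3.9% of all probe sets), 1 higher (1.92% of all) and 2 lower (1.99% of all). Both falls were light intermediate chains of dynein 1. Dync1li1 stood at 8.66 in CAST/EiJ, 8.51 in PWD/PhJ, 8.43 in PWK/PhJ and 9.19 in WSB/EiJ, beside 9.08 to 9.41 in the classical strains. The first 3 strains lay below every classical strain and WSB/EiJ within their range. Dync1li1 had a single probe set, and whether its probes match every strain equally was not tested. The difference was -0.50 ± 0.09 units (limma adjusted p = 0.00924), and within batches 5, 6 and 7 it was -0.547, -0.248 and -0.777. It lost its call without PWD/PhJ (limma adjusted p = 0.0631, the highest of the alternatives, whose lowest was 6.72e-06), the strain with an array whose header named PWK/PhJ, and with RMA values without the mismatched columns.

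Dync1li2 was lower by 0.27 ± 0.07 units with 1433926_at (-0.272, limma adjusted p = 0.0330), and by batch it was -0.265, -0.188 and -0.309. The wild-derived strains stood at 8.82 to 9.17 and the classical ones at 9.07 to 9.48, so the groups overlapped. The second Dync1li2 probe set, 1433925_at, was not called. Kif17 was higher by 0.19 ± 0.05 units with 1419826_at (limma adjusted p = 0.0490; by batch 0.179, 0.0896 and 0.378), again with overlapping strains. Each call was lost under 9 alternatives, among them leaving out CAST/EiJ or PWD/PhJ, and for Kif17 the 6 arrays with disagreeing headers (0.17). The actin 3' to 5' ratio was 1.32 to 4.65 in the wild-derived and 1.13 to 3.71 in the classical arrays. Of the marker lists, 2 of 6 astrocyte markers were called lower in the wild-derived strains, as were Mobp of 9 oligodendrocyte and myelin markers, Kl of 8 choroid plexus markers and Dsp of 7 dentate granule neuron markers. Of all genes, each read by its brightest probe set, 2.11% were called lower. The median differences of these 4 lists were -0.20, -0.31, -0.22 and -0.07 units, beside 0.02 for all probe sets. The mean level was 9.31 to 9.66 in wild-derived and 9.26 to 10.2 in classical arrays for the myelin markers and 9.40 to 9.67 and 9.49 to 9.93 for the astrocyte markers. The part of these markers in the result was not tested. With the actin ratio as a covariate Dync1li1 differed by -0.42 units and kept its call, and Dync1li2 lost it.

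**Figure D5:**
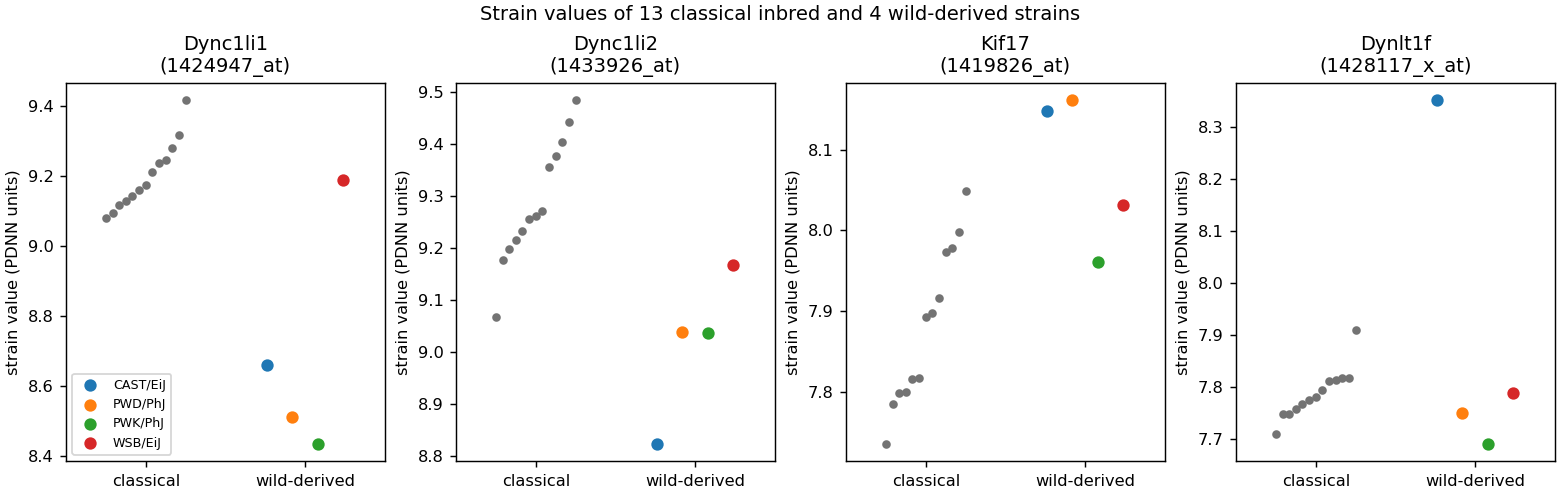
Strain values in PDNN units (vertical axes) of 13 classical inbred and 4 wild-derived strains for Dync1li1, Dync1li2, Kif17 and Dynlt1f, 1 point a strain. CAST/EiJ, PWD/PhJ and PWK/PhJ lie below every classical strain with Dync1li1, and CAST/EiJ stands at 8.35 with Dynlt1f.

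No motor gene was called between males and females over all strains (0 of 127 in limma, beside 0.118% of all probe sets, 0.0444% higher and 0.0733% lower in males). At an unadjusted p under 0.05 there were 10, and the smallest adjusted p was 0.9997. The sex difference was also not called as differing between the BXD and CXB panels, 0 of 127 beside 0.0111% of all probe sets (0.00888% higher and 0.00222% lower in BXD), with 8 at an unadjusted p under 0.05.

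The partners and tracks of the motors were read from lists, each gene by its brightest probe set. Over all 18193 genes read this way 24.7% were called over all strains, 7.59% in the BXD strains, 4.58% in the CXB strains, 5.71% between the BXD parents and 3.78% in the wild-derived strains. Of 38 measured adaptors and partners 14 were called over all strains, 4 in the BXD strains and 1 in the CXB strains. The dynactin subunit Dctn3 and the kinesin-2 partner Kifap3 had BXD intraclass correlations of 0.642 and 0.621. Between the BXD parents 0 were higher and 2 lower in DBA/2J, the minus-end kinesin Kifc3 (-0.21) and Fez2 (-0.25).

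Of 34 measured tubulin tracks and track-binding proteins 11 were called over all strains, 5 in the BXD strains and 2 in the CXB strains. The plus-end proteins Clasp2 and Mapre1 had BXD intraclass correlations of 0.893 and 0.771, and the tubulin polyglutamylase Ttll7 had 0.734. Between the parents Clasp2 (0.62) and the neuronal track protein Dcx (0.58) were higher in DBA/2J and Ttll7 (-0.51) was lower. Of 15 axonemal dynein subunits, the motors of beating cilia, 4 were called over all strains, Dnah6 and Dnaic1 in the BXD strains, Dnah2 and Dnah7a in the CXB strains, and 0 between the parents. Median intraclass correlations over all strains were 0.170, 0.153 and 0.166 for the 3 lists, beside 0.114 for all genes read by their brightest probe set. In the wild-derived strains 0 partners, 1 track protein (Map4, -0.28) and 1 axonemal subunit (Dnah1, -0.14) were called, both lower.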

How the data were processed

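Each probe set has a deposited score on each of 201 arrays, summarized by the authors with PDNN, which was used, and with RMA (197 arrays) and MAS5, which served as alternatives. The authors' software and log base were not given in the sources used here. Means of the PDNN arrays were 8.06 to 8.10, and their SDs 0.633 to 0.801. Raw intensities were not used, and arrays have no counting depth, so their number limits the precision.

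Groups came from the labels. The mixed-sex array was left out and a technical duplicate of B6D2F1 averaged, leaving 199 columns. Strain, sex and batch were fitted to 45037 probe sets (64 controls left out) with limma 3.58.1 in R 4.3.3, with 107 terms and 92 residual degrees of freedom; wild-derived and classical strains were compared on strain values. Strain effects were F-tests and the signed comparisons two-sided tests, all Benjamini-Hochberg adjusted over all probe sets. Most of these tests were also run on simulated data. Relations used permutation tests in numpy 2.4.6, adjusted over 6 pairs of probe sets or 6 relations with scipy 1.17.1. No label ties arrays of a strain to separate litters, and p-values therefore cover only the spread between these pools, which may be partly technical.

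Named were the 12 called probe sets with the widest strain values, at most 1 a gene, the calls of each signed comparison, the brightest probe set of a gene when its role was described, and the other probe sets of such genes. Other calls were named after their values were seen. Members, lists and motifs were chosen with earlier results of these data known. Alternatives were RMA, MAS5 and quantile-normalized values, rescaling, a mean of at least 8, no batch term, age or actin ratio as covariates, panels alone, and left-out arrays or strains. For strain effects and sex comparisons only 20 arrays, drawn at random per panel or comparison, were left out in turn. In the RMA table the 3 columns named for C57BL/6J matched BALB/cJ arrays best and 1 BXD14 column matched BXD45.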

Additional observations from a re-analysis of the deposited data

Results flagged for a closer look

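In the 33 called or named probe sets the 4 wild-derived strains were searched for a strain far from the others, a search in which chance marks about 1 in 20 groups. Dynlt1f (1428117_x_at) stood at 8.351 in CAST/EiJ, on 1 array, and at 7.749, 7.69 and 7.788 in PWD/PhJ, PWK/PhJ and WSB/EiJ, with the gap to the nearest strain being 0.852 of the range. Dync2h1 (1429250_at) stood at 8.536 in PWD/PhJ and at 8.367, 8.362 and 8.373 in CAST/EiJ, PWK/PhJ and WSB/EiJ, with a gap of 0.937 of the range. The PWD/PhJ arrays read 8.50 and 8.59, and the header of the first names PWK/PhJ.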

How the results depend on the processing

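Of 1634 values of called members under alternatives 1459 kept their call, 173 lost it and 2 reversed, both of Kif5c 1457255_x_at between the parents (-0.01379 with RMA and -0.447 with MAS5). Calls kept under every alternative numbered 8 of 23 over all strains, 3 of 10 in BXD, 1 of 7 in CXB, 1 of 14 between the parents, 0 of 1 between sister strains and 0 of 3 for wild-derived strains. The 14 parental calls became 4 without batch, and 7 to 12 leaving out an array (9 without C57BL/6J replicate 2, 7 without DBA/2J replicate 1, 9 without DBA/2J replicate 2). With RMA they became 4, but the RMA columns named for C57BL/6J matched BALB/cJ arrays, so no RMA value tests the parents. The sister-strain call, Kif21b, was lost with RMA, whose C57BL/6J columns matched BALB/cJ arrays and which called 2 other probe sets, and the count became 0 with MAS5, 2 with quantile normalization, 0 without batch and 0 to 0 leaving out an array. The 3 wild-derived calls became 1 with RMA, 0 with RMA without mismatched columns, 1 without arrays of an RMA outlier share from 0.1 upwards, 5 without arrays with disagreeing headers, 14 with the actin ratio as a covariate, and 0 to 10 leaving out a strain (CAST/EiJ 1, PWD/PhJ 0, PWK/PhJ 10, WSB/EiJ 6). The 10 BXD calls became 6 with RMA without mismatched columns and stayed at 10 to 10 leaving out 1 of 20 arrays drawn at random. The 7 CXB calls became 2 with CXB arrays alone. They became 5 to 11 leaving out 1 of 20 drawn arrays or both arrays of CXB7 (11 without CXB7 replicate 1). The 23 calls over all strains became 22 to 26 leaving out 1 of 20 drawn arrays, a range that does not cover the other alternatives. The arrays not drawn were not left out. The alternatives with mismatched columns, disagreeing headers or BXD numbers, the actin ratio and panels alone were chosen after seeing the data, and the cause of each change was not tested. No paired analysis was possible because replicate numbers followed accession order and the labels pair no arrays across strains. Parents had 2 or 3 arrays, and 1 array for BALB/cByJ and CAST/EiJ, which limits what their values show.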
